A study of Mus musculus with 2 samples.

Results

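The 9 genes listed here, members of the JAK and STAT families, were followed in H3K4me3 peak lists of adult lung ILC2s. They were the kinase genes Jak1, Jak2 and Jak3 and the transcription factor genes Stat2, Stat3, Stat4, Stat5a, Stat5b and Stat6. They were found by symbol in GENCODE M21, the annotation of GRCm38, where they made up 9 of 21951 protein-coding genes. Every peak that overlapped a gene body or lay within 1000 bp of any transcript start of the gene was taken, 25 peaks in all.
The mark, histone H3 trimethylated at lysine 4, gathers at active starts and was mapped by CATCH-seq, a native low-input ChIP-seq that uses MNase to cut chromatin. Each library came from approximately 3000 sorted lung ILC2s (CD45+, Lin-, ST2+ and, in the study's gate for adult lungs, also Thy1+) of 8-week-old offspring (7 to 9 weeks in the protocol). In the control group the C57BL/6J mothers were sensitized with PBS/alum and received PBS intranasally, and in the asthma group they were sensitized with OVA (ovalbumin) in alum and received OVA. The intranasal doses began on gestation day 4 and ended on gestation day 17 in both groups. The fathers were untreated in both groups, and the number of offspring behind each pool was not given. The study describes the experiment with these data as run once, with 1 dam in each group, so group, dam and litter cannot be told apart. There was 1 library per group, so no value has a replicate and nothing could be tested between the groups. The lists are called the control list, with 42126 peaks, and the asthma list, with 51610 peaks.

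JAK kinases sit on the inner tails of cytokine receptors, phosphorylate them once a cytokine has bound, and so recruit STAT proteins, which pair and move to the nucleus. In ILC2s this route carries the signals of IL-2, IL-7 and TSLP, which keep the cells alive and active, and of IL-4. Stat5a and Stat5b are close relatives that act after IL-2, IL-7 and TSLP, Stat6 acts after IL-4 and IL-13, Stat4 after IL-12, Stat3 after IL-6 and IL-10, and Stat2 after type I interferon.

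Sequences are shown for the starts of Jak3, Stat4 and Stat5b, where the lists or the starts of one gene differed in having a peak. They are RefSeq promoter windows on GRCm38.p6, from 250 bases before to 50 bases after a start, 5′ to 3′ on the strand of the gene. Windows were found for 9 of 9 genes, 12 in all. CpG dinucleotides are in capitals, and windows of coding genes held a median of 14 CpG. Windows with a peak within 1000 bp in the control list held 23 and the others 4. Jak3, whose start was marked in the control list alone, had a window with 9 CpG. Stat4 had an unmarked window with 2 CpG at its 5′ end and a marked window with 4 CpG at an inner start. Stat5b, with the strongest start of the 9 genes in the asthma list, had 50 CpG at its 5′ start and 7 at an inner start that was marked in the control list alone.
Jak3, chr8:71676133-71676432, plus strand: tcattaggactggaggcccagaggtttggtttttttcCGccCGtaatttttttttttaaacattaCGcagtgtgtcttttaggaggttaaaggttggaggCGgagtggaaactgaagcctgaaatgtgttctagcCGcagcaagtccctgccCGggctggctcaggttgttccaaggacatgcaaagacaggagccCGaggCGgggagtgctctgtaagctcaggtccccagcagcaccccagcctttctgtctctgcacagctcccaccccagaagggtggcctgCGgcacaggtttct
Stat4 5′ start, chr1:51986898-51987197, plus strand: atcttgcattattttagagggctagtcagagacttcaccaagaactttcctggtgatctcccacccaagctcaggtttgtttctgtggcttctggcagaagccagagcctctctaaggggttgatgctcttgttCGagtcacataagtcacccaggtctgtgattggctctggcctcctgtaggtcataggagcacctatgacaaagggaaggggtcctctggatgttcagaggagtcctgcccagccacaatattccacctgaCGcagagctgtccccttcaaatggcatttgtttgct
Stat4 inner start, chr1:52007990-52008289, plus strand: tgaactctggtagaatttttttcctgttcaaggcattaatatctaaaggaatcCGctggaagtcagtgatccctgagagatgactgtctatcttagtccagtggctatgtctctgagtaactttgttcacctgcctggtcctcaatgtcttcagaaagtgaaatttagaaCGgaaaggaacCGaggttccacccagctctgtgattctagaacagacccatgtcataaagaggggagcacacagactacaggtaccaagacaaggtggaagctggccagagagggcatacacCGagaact
Stat5b 5′ start, chr11:100850532-100850831, minus strand: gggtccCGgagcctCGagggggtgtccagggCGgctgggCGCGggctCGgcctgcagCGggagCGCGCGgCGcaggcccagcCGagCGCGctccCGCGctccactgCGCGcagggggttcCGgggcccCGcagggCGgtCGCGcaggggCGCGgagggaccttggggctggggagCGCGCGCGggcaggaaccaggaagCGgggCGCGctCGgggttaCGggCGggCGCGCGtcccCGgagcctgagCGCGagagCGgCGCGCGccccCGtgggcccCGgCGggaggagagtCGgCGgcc
Stat5b inner start, chr11:100822521-100822820, minus strand: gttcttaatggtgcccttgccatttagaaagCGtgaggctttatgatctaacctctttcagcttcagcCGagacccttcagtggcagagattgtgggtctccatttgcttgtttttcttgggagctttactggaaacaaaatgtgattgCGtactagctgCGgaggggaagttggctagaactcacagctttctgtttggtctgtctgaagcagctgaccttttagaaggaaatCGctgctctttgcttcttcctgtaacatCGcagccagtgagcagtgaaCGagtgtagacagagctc
The marked Stat4 window was as poor in CpG as the median unmarked window. The other windows held 44 CpG for Jak2, 29 for Jak1, 27 and 5 for Stat5a, 22 for Stat2, 15 for Stat3 and 8 for Stat6. The letters TTCNNNGAA, the palindrome known from STAT dimers, were in 0 of 12 member windows on either strand, beside 7.74% of the windows of coding genes. GGGCGG, the letters of a GC box, were in 7 of 12 member windows, beside 47.8% of the windows of coding genes and 69.7% of those marked in the control list, as 11 of the 12 were. CCAAT was in 4 of 12, beside 37.8% of the windows of coding genes and 37.9% of the marked ones. Both were searched on both strands and picked after the peak values were known.

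A stretch next to a start of Stat5a and the inner start of Stat5b was alike. It ended 2 bases before the Stat5a start 100860484 and ran past the Stat5b start. The Stat5a window at the start 100860484 and the Stat5b window at the inner start 100822570 aligned over 104 columns, of which 83 (79.8%) were identical and 4 were gaps. The 5′ window of Stat5b aligned to that Stat5a window at 61.0% over 105 columns. The stretches are shown without gaps, with identical bases in capitals.
Stat5a, chr11:100860381-100860482, plus strand: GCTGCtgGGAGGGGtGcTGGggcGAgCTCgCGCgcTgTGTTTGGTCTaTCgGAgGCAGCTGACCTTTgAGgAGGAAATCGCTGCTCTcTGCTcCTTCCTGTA
Stat5b, chr11:100822563-100822664, minus strand: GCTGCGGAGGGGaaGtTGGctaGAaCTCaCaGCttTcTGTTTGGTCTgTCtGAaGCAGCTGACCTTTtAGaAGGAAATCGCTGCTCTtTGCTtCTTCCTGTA
At Stat5a the stretch lay in the gap between its start peaks in both lists. At Stat5b it touched the edge of a peak of the control list by 5 bases, and the asthma list had no peak there.

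All 9 genes had a start peak, that is a peak within 1000 bp of a start, in the control list, beside 51.0% of coding genes. In the asthma list 8 of 9 had one, beside 42.0%, and the exception was Jak3. With peaks anywhere in the gene counted, 9 and 8 genes had a peak, beside 58.2% and 51.9%. Thus 1 of 9 genes with a control start peak lacked one in the asthma list, beside 19.1% of coding genes with a control start peak. The control list held 15 member peaks, 13 of them at starts, and the asthma list held 10, 9 of them at starts. All 9 asthma start peaks overlapped a control peak by at least 1 bp, beside 95.6% of asthma start peaks of coding genes. Of the 13 control start peaks 9 overlapped an asthma peak, beside 70.0%. The count of genes with a start peak depended on the threshold. Among only the 10000 peaks of highest −log10 p of each list, 8 of 9 genes had one in the control list, beside 32.3% of coding genes. In the asthma list 1 of 9 then had one, beside 9.34%.

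**Figure D1:**
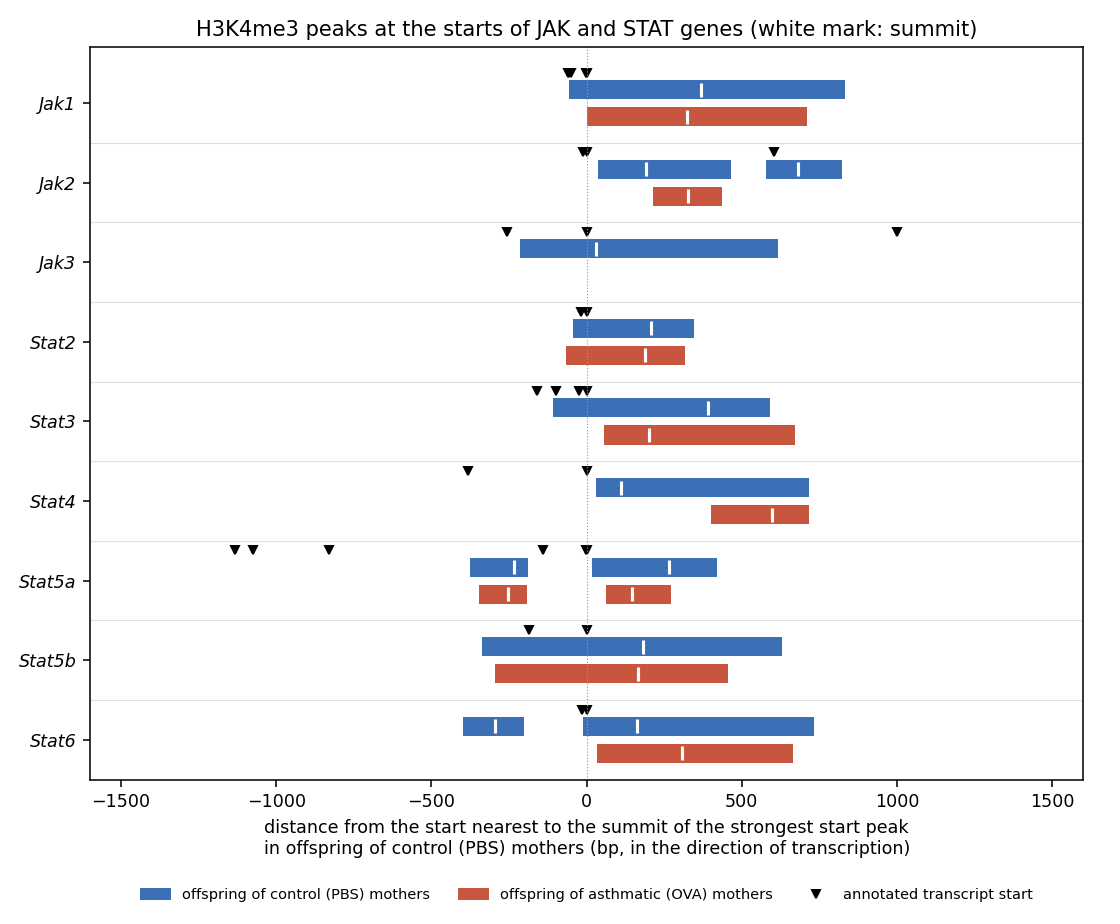
H3K4me3 peaks at the starts of the 9 genes, by distance in bp from the start nearest to the summit of the strongest control start peak. Bars are peaks of the control list (blue) and the asthma list (red), white marks are summits and triangles are annotated starts. Jak3 has a blue bar alone, Jak2 and Stat6 each have a second blue bar without a red one, and Stat5a has a pair of bars in both lists.

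Start domains, made by joining peaks at most 1000 bp apart and taking the widest at a start of each gene, were compared by width. Their median width was 797 bp over the 9 genes in the control list and 617 bp over the 8 genes in the asthma list, beside 663 and 409 bp over coding genes. All 8 genes with a start domain in both lists were narrower in the asthma list, beside 92.2% of coding genes. With widths divided by the smallest peak width of each list, 190 and 156 bp, 6 of 8 were narrower, beside 72.3% of coding genes, and Stat2 and Stat3 were not. The median ratio of asthma to control width was 0.78 for these 8 genes and 0.66 for all 9064 coding genes with both. By more than 1.5 times, 3 of 8 genes were narrower (Jak2, Stat4 and Stat6), beside 50.4%, and 0 of 8 were wider, beside 1.17%. Narrower domains were thus found at most coding genes in this pair of lists and not at these genes alone.

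**Figure D2:**
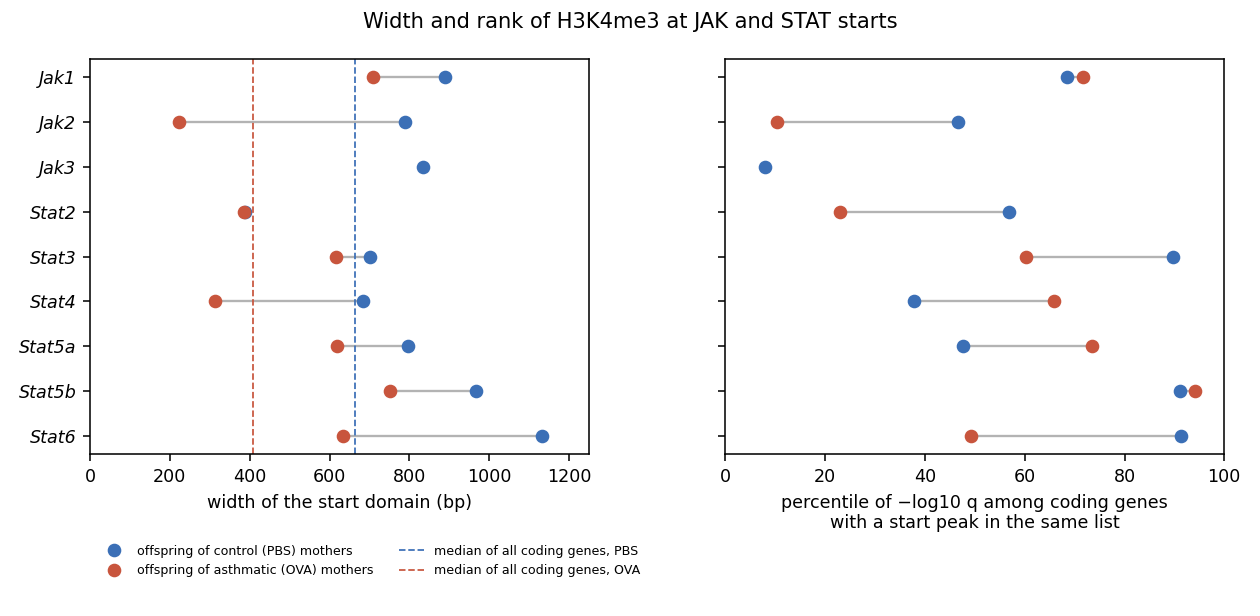
Start domain width in bp (left) and percentile of the −log10 q of the strongest start peak among coding genes with a start peak in the same list (right), for each gene in the control list (blue) and the asthma list (red). Dashed lines are the medians of all coding genes, 663 and 409 bp. All 8 red widths lie left of the blue ones, while 4 of the 8 red percentiles lie to the right.

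Jak1, the kinase that pairs with most receptors of this route, lay on chr4:101152367-101265282 on the minus strand. Its start domain spanned 888 bp in the control list and 708 bp in the asthma list, and both covered part of exon 1 and intron 1. The strongest start peak had a −log10 q of 16.4 in the control list and 10.0 in the asthma list. These values are not scaled between libraries, so the percentile among coding genes with a start peak of the same list was used, with 100 for the strongest. By this rank Jak1 held nearly the same place, at 68.5 and 71.6.

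Jak2, the kinase of the receptors for GM-CSF, growth hormone and interferon gamma, lay on chr19:29251828-29313080 on the plus strand. In the control list it had start peaks at 29251874 to 29252304 and 29252418 to 29252661, which joined to 788 bp. The asthma list held only the inner part of the first, 223 bp from 29252053 to 29252275. The ratio of 0.28 was the lowest of the 8 genes. Its strongest start peak had a −log10 q of 13.3 and 4.88, and its percentile among genes went from 46.6 to 10.3. The second control peak, at the start of a coding transcript in intron 1, had a −log10 q of 8.07. Among 747 control start peaks within 0.5 of that value, 53.9% (exact Clopper-Pearson 95% interval 50.3 to 57.6%) overlapped no asthma peak.

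Jak3, the kinase bound to the common gamma chain of the IL-2 and IL-7 receptors, lay on chr8:71676296-71690575 on the plus strand. Its control peak, at 71676336 to 71677168, was 833 bp wide, with its summit in exon 1. The nearest asthma peak was 46688 bp from the 5′ start. The control peak was wide but weak, at percentile 66.6 among genes by width and 7.89 by −log10 q, which was 6.38. Of 788 control start peaks of like −log10 q, 65.9% (62.4 to 69.2%) overlapped no asthma peak. Of 419 genes whose strongest control start peak was of like −log10 q, 242 (57.8%, 52.9 to 62.5%) had no asthma start peak. Of 1596 genes with a control start domain within 10% of its width, 148 (9.27%, 7.89 to 10.8%) had no asthma start peak, but their median −log10 q was 14.9 and 1.63% of them had a lower value than Jak3. Genes of like strength thus lacked an asthma start peak more often than not, and genes of like width seldom did.

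Stat6, which relays IL-4 and IL-13, lay on chr10:127642986-127660957 on the plus strand. It had the widest start domain of the 9 genes in the control list, 1133 bp, made of peaks at 127642603 to 127642801 and 127642990 to 127643735. In the asthma list it had 1 peak of 633 bp within the second. Its −log10 q was 21.8 and 7.87, and its percentile among genes went from 91.4 to 49.1, the largest change of the 8 genes by this rank. Among all peaks of the list it went from 96.4 to 59.8, while Jak2 went from 81.0 to 17.2, the largest change there. The upstream control peak had a −log10 q of 6.75, and 61.4% (57.8 to 64.9%) of 751 control start peaks of like value overlapped no asthma peak.

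Stat5b, Stat5a and Stat3 lay in this order on chromosome 11. Stat5b, on the minus strand at chr11:100780731-100850724, spanned 968 bp at its 5′ start in the control list and 751 bp in the asthma list. The −log10 q was 21.7 and 14.1, at percentiles 91.1 and 94.1 among genes. It was the gene of the 8 with the highest rank in the asthma list. At the inner start 100822528, of the coding transcript Stat5b-202, the control list alone had a peak, 263 bp wide at 100822305 to 100822567. It had a −log10 q of 7.03, and of 764 control start peaks of like value, 59.4% (55.8 to 62.9%) overlapped no asthma peak.

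Stat5a, on the plus strand at chr11:100859351-100885169, had the same layout in both lists. Control peaks at 100860108 to 100860297 and 100860501 to 100860904 flanked the starts from 100860345 to 100860485, and the asthma peaks lay at 100860138 to 100860293 and 100860547 to 100860756. The joined domains spanned 797 and 619 bp. The farthest upstream start, 100859351, was 757 bp from the nearest control peak and 787 bp from the nearest asthma peak. Its −log10 q was 13.4 and 10.3, and its percentile among genes went from 47.6 to 73.4.

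Stat3, on the minus strand at chr11:100885098-100939540, spanned 701 bp in the control list and 615 bp in the asthma list. Its −log10 q was 21.2 and 8.84, and its percentile among genes went from 89.8 to 60.2. Of its 14 annotated starts 4 had a peak within 1000 bp in both lists. The control list also held a peak of 209 bp in intron 1, at 100931492 to 100931700, 7680 bp from a start, with a −log10 q of 4.60. Of 3952 control peaks of like value outside the starts of coding genes, 44.3% (42.7 to 45.8%) overlapped no asthma peak.

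Stat2, which acts with IRF9 after type I interferon, lay on chr10:128270559-128292849 on the plus strand. It kept its width, 389 bp in the control list and 386 bp in the asthma list, a ratio of 0.99. The −log10 q was 14.7 and 6.00, and its percentile among genes went from 56.8 to 22.9 while its percentile by width went from 16.8 to 46.5. Rank by strength and rank by width thus moved in opposite directions. This was not particular to Stat2. At Stat3 the percentile by width rose from 54.1 to 74.1 while that by strength fell, and at Stat4 it fell from 52.5 to 32.2 while that by strength rose.

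Stat4, on the plus strand at chr1:51987148-52107189, was marked away from its 5′ end in both lists. The 5′ start 51987148, of the coding transcript Stat4-202, was 5247 bp from the nearest control peak and 21880 bp from the nearest asthma peak. The marked starts were 52008243, of the coding transcript Stat4-201, and 52008626. The start domain spanned 685 bp in the control list and 314 bp in the asthma list, where the side toward the start was missing and the summit lay 488 bp farther downstream. The −log10 q was 12.0 and 9.58, and its percentile among genes went from 37.8 to 65.8. Both lists also held a peak in intron 3 of Stat4-201, at 52046502 to 52046870 and 52046459 to 52046811. It was stronger in rank in the asthma list, at percentile 94.4 of all peaks against 75.2. All of its bases were repeat-masked, and the 75 bases at its summit occurred 61 and 58 times in the genome, so reads there may match other places too. The 75 bases at the summit were single copy in the other 23 of the 25 member peaks.

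**Figure D3:**
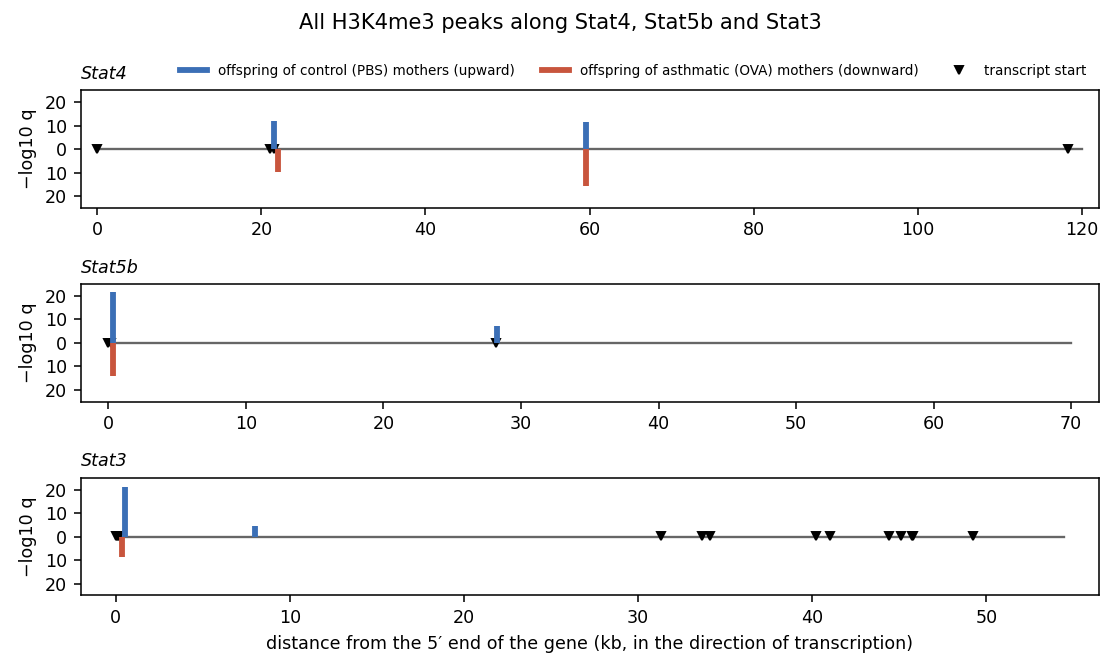
Every peak along Stat4, Stat5b and Stat3, by distance in kb from the 5′ end, with the −log10 q drawn upward for the control list (blue) and downward for the asthma list (red). Triangles are annotated starts. Stat4 has no bar at its 5′ end, and the inner bars of Stat5b and Stat3 are blue alone.

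The summit of the strongest start peak lay downstream of the nearest start in 9 of 9 genes in the control list, beside 75.5% of coding genes, at 29 bp for Jak3 to 390 bp for Stat3. In the asthma list this held for 7 of 8 genes, beside 74.8%, the exception being Jak2. The start nearest to the Jak2 asthma summit was an inner one, and the summit lay at −277 bp from it. From the 5′ end of Jak2 the summit lay 201 bp downstream in the control list and 336 bp downstream in the asthma list. The Jak2 summit thus lay farther downstream in the asthma list, and the exception came from a change of nearest start. Between the lists the summit moved by 13 bp at Stat5b to 488 bp at Stat4, with a median of 127 bp over the 8 genes and 74 bp over coding genes.

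The number of fragments at each summit was solved from the fold and −log10 p. It is a derived count that assumes that peaks were called without a control library, and its exact Poisson 95% interval covers counting error only. In the control list the strongest start peak held 39 fragments at Stat6 (27.7 to 53.3), 38 at Stat3, 36 at Stat5b, 32 at Jak1 and at Jak2, 25 at Stat4, 23 at Stat2 and at Stat5a, and 18 at Jak3 (10.7 to 28.4). In the asthma list it held 24 at Stat5b (15.4 to 35.7), 19 at Jak1, 18 at Stat3, Stat5a and Stat6, 17 at Stat4, 14 at Jak2, and 13 at Stat2 (6.92 to 22.2). The number was lower in the asthma list for 8 of 8 genes, beside 97.2% of coding genes. The median ratio was 0.58 for the 8 genes and 0.61 for coding genes. For each of the 8 genes the intervals of the lists overlapped, least at Stat6, where the control interval began at 27.7 and the asthma interval ended at 28.4. Overlap of intervals is not a comparison of the counts, which were not tested against each other. The smallest number at any summit was 9 in the control list and 8 in the asthma list, and 5% of start peaks held at most 14 and 11, so the 18 of Jak3 lay somewhat above the lowest start peaks.

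**Figure D4:**
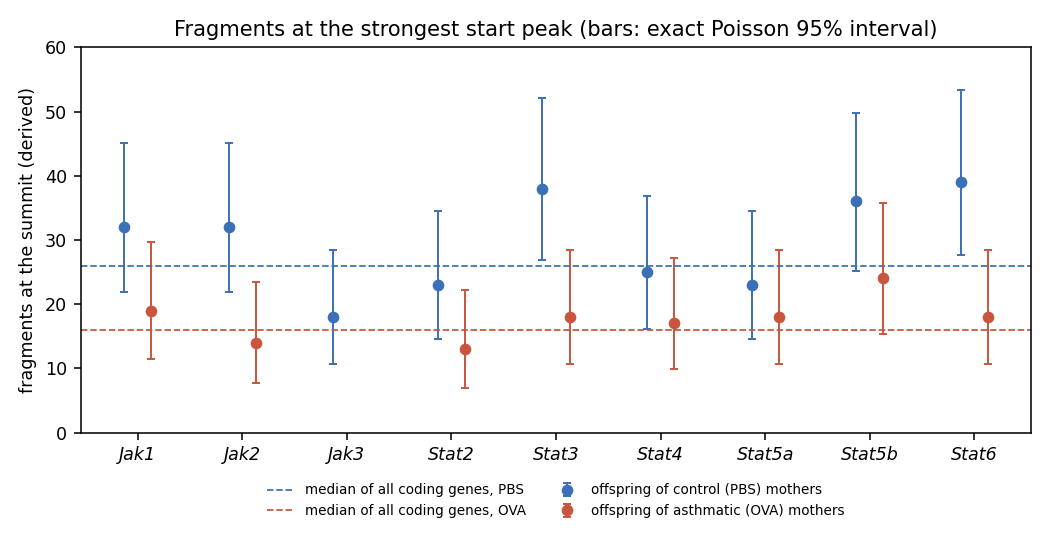
Derived number of fragments at the summit of the strongest start peak of each gene in the control list (blue) and the asthma list (red), with exact Poisson 95% intervals as bars. Dashed lines are the medians of coding genes, 26 and 16 fragments. Every red point lies below the blue point of its gene, and the bars overlap.

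Ranked among all peaks of its list, the strongest start peak was lower in the asthma list for 8 of 8 genes, beside 86.7% of coding genes. The median change was −20.03 percentile points for the genes and −21.06 for coding genes. Ranked among coding genes, 4 of 8 were lower (Jak2, Stat2, Stat3 and Stat6), beside 58.3% of coding genes, and 4 were higher (Jak1, Stat4, Stat5a and Stat5b). The ranks among genes therefore moved in both directions, by −42.2 points at Stat6 to 28.1 at Stat4. Without a second library per group the spread of such ranks is unknown.

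Other genes of the route were counted from a list of 30 receptors and 19 inhibitors and phosphatases. The same counts over coding genes stand beside them, 19.1% marked in the control list alone of those marked there, 92.2% narrower and a median ratio of 0.66. Of the receptors, 18 of 30 had a start peak in the control list and 15 of 30 in the asthma list, beside 51.0% and 42.0% of coding genes. In both lists were 13, of which 10 had a narrower domain in the asthma list, with a median ratio of 0.81. The other 3 were Il2ra at 319 and 339 bp, Ifnar2 at 679 and 778 bp and Ghr at 279 and 304 bp. Of the 18, 5 (Il7r, Il2rg, Il2rb, Il6ra and Csf2ra) had one in the control list alone, and 2 of the 15 (Csf2rb and Osmr) had one in the asthma list alone, beside 1.69% of coding genes marked there. Il4ra, the receptor chain that leads to Stat6, spanned 522 and 451 bp, and Crlf2, the TSLP receptor chain, 280 and 173 bp. Of the inhibitors and phosphatases, 19 of 19 had a start peak in the control list and 16 (84.2%) in the asthma list, and Socs3, Ptpn6 and Sh2b3 were those without. Of these 16, 14 were narrower in the asthma list, with a median ratio of 0.63. The others were Cish, an inhibitor that Stat5 is known to induce, at 888 and 1027 bp, and Socs7 at 1100 and 1169 bp.

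Of 10 ILC2 markers 8 had a start peak in the control list and 6 in the asthma list, beside 51.0% and 42.0% of coding genes. Gata3 and Il7r had one in the control list alone, 2 of 8 beside 19.1%, and Icos and Klrg1 in neither. The Gata3 control peak was weak, 351 bp wide with 18 fragments and a −log10 q of 5.65, at percentile 5.08 among genes. That was below Jak3 at 6.38, and of genes of like strength to Jak3 57.8% had no asthma start peak. Il7r had a −log10 q of 11.4, at percentile 33.2. No share at like strength was computed for Gata3 or Il7r. The markers of T cells (Cd3e, Cd3d, Cd4 and Cd8a), macrophages (Adgre1, Csf1r, Marco, Mrc1 and Lyz2), endothelial cells (Pecam1 and Cdh5) and fibroblasts (Pdgfrb and Col1a1) had no start peak in either list. Of 3 epithelial markers Sftpc and Nkx2-1 had none and Epcam had one in the control list alone, 699 bp wide with a −log10 q of 14.7, and its part in the results was not tested.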

How the data were processed

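H3K4me3 was measured by CATCH-seq in 1 library of lung ILC2s per group, and 1 peak list per library was used. The authors trimmed the paired reads with Trim Galore and Cutadapt, aligned them to GRCm38 (mm10) with Bowtie 2 and used Sambamba to drop duplicates. The peak caller, its control and its threshold are not given in the sources used here, and the study's reporting summary says that peaks were not called on these data, although a list was deposited for each library. The deposited lists hold for each peak a score, a fold (a ratio of summit signal to background), a −log10 p-value, a −log10 q-value and a summit position. The smallest −log10 q was 2.02 in the control list and 2.01 in the asthma list. The lists give no read totals, so depth is unknown. The smallest background solved from fold and −log10 p was 96.1 fragments per 10 kb in the control list and 100.4 in the asthma list, with the smallest peak width of each list, 190 and 156 bp, taken as the fragment length. These values were thus close, and whether they follow depth, or bear on the lower summit counts of the asthma list, was not tested.

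Starts, exons and gene types came from GENCODE M21, and exons and introns are those of the transcript numbered 201 unless another is named. Peaks within 1000 bp of a start were counted and peaks at most 1000 bp apart were joined. Positions are counted from 1. Fragments at summits were solved from fold and −log10 p under a Poisson model to within 0.001 for 99.99% of peaks of each list. The steps were tested on simulated peaks. Promoter windows came from RefSeq and were aligned with Biopython 1.88. Repeat-masked bases and copies of summit bases came from the reference genome, 21 chromosomes.

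All 9 genes were named in full, and genes of the pathway list where a count was 5 or fewer. The members and lists were chosen with earlier results of these data known. The comparisons with peaks of like −log10 q or width, the letters GGGCGG and CCAAT and the examples named from the lists were chosen after their values were seen. With 1 library per group no test was made. Alternatives were other distances, joins, thresholds and ranks. The tools were scipy 1.17.1, pandas 2.3.3, matplotlib 3.10.9 and numpy 2.4.6 in Python 3.11.15.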

Additional observations from a re-analysis of the deposited data

How the results depend on the processing

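Of 39 values recomputed under an alternative, 36 stayed within 1.5 times of the main value and 3 did not. With the 10000 peaks of highest −log10 p of each list, 1 of 9 genes had a start peak in the asthma list (coding genes 9.34%) and 2 had a peak anywhere (15.6%), against 8 each in the main setting, while 8 of 9 had a start peak in the control list (32.3%). The asthma start peak left was that of Stat5b, and Stat4 counted only through its repeat-masked peak in intron 3. Ranked among all peaks of the control list, the median percentile of the genes was 85.3 instead of 56.8 among coding genes. With a −log10 q of at least 5, 9 and 7 genes had a start peak (coding genes 49.6% and 37.4%), and with the 5′ end of each gene as its only start 8 and 7 had one (47.1% and 38.4%). With widths divided by the smallest peak width of each list, 190 and 156 bp, the median ratio of widths was 0.95 (coding genes 0.81), and 2 of 8 genes instead of 3 were narrower by over 1.5 times (coding genes 35.9%). No paired analysis was possible because each group had a single library, so none could be left out either. The limits are few fragments per summit, a caller that is not known and peaks that were called per library.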

Other observations

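Genes of the receptors that use the common gamma chain, the partner of Jak3, were set side by side after their values were seen. Of 8 such genes, 3 (Il7r, Il2rg and Il2rb) had a start peak in the control list alone, 4 (Il2ra, Il4ra, Il9r and Il15ra) in both lists and 1 (Il21r) in neither. Of coding genes with a control start peak, 19.1% had none in the asthma list, a base that leaves out genes without a control start peak, as Il21r. That share is not matched for strength. Il2rb had a −log10 q of 6.76, within 0.5 of Jak3 at 6.38, and 57.8% of genes of like strength to Jak3 had no asthma start peak. For Il7r and Il2rg no such share was computed. The control start domain of Il7r was 448 bp wide with 33 fragments at its summit, that of Il2rg 925 bp with 21, and that of Il2rb 1024 bp with 19. By −log10 q these 3 stood at percentiles 33.2, 22.4 and 8.99 among genes with a control start peak. Of the 4 in both lists, the percentile went from 63.8 to 95.5 for Il2ra and from 68.9 to 98.5 for Il15ra, and from 62.0 to 54.7 for Il4ra and from 16.0 to 4.69 for Il9r. These are values of 1 library per group, with no test.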
